A study of Homo sapiens with 96 samples.

Results

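The libraries described here are the nuclear nascent RNA libraries of a study of hTERT-RPE1, a human cell line derived from the retinal pigment epithelium and kept dividing by added telomerase. They were chosen by their labels and number 12 of the 96 samples of the series. Nascent RNA is RNA that is still being made or has just been made, so its level in nuclei follows transcription more closely than the level of stored RNA does. The sources used here do not say how the nascent RNA was separated. Of the 12 libraries, 10 came from cells synchronised with 400 uM mimosine for 22 h, 2 libraries for each of the windows T0-2, T2-4, T4-6, T6-8 and T8-10. The other 2 came from asynchronous cells, which the labels list as not synchronised. No source used here gives the unit of the window numbers. Every window library carries the drug treatment that the asynchronous libraries lack, so passage through S phase and the effect of mimosine cannot be told apart in any comparison with asynchronous cells. The labels do not state whether a group's 2 replicates were separate cultures. The p-values therefore reflect only how far these libraries differ, and that may be a technical spread.

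Mimosine is a plant amino acid that binds iron and holds cells at the border of G1 and S phase. Cells released from it copy their DNA and then enter G2. Iron is also a cofactor of ribonucleotide reductase, which makes the building blocks of DNA, and of the prolyl hydroxylases that mark the hypoxia factor HIF for destruction. Asynchronous cells are a mixture of all phases. Histone genes are transcribed mainly in S phase, genes of mitosis mainly in late S phase and G2, and genes that license replication origins mainly before S phase.

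The 12 libraries held 12.8 to 29.0 M reads as recovered from the steps of the deposited values, with T4-6 replicate 2 the shallowest and T6-8 replicate 2 the deepest. The asynchronous libraries held 21.1 and 13.4 M. In a principal component analysis of the 9784 genes tested, the first component (29.6% of the variance) ran from T0-2 replicate 2 to T8-10 replicate 2, and the second (19.2%) set the asynchronous libraries, at 35.3 and 37.8, apart from the 10 window libraries, at -21.0 to 3.1. T8-10 replicate 2 stood apart from the rest: it lay at 50.4 on the first component, and its median correlation with the other 11 libraries across genes was 0.827, the lowest of the 12. Medians of the p53, HIF, glycolysis, licensing, histone, G2/M and ribosomal protein lists are given with and without it. Of 13 listed pigment epithelium markers in the table, 11 stayed below 0.5 RPKM in all 12 libraries, RPE65 and BEST1 among them, so the defining markers of that tissue were near absent. MITF and OTX2, transcription factors of pigment and eye development, passed the filter on low values. The summed level of the 13 was 2.74 to 6.03 RPKM in the windows and 4.11 and 3.17 RPKM in asynchronous cells. Markers of other cell types summed to 1.25 to 5.66 RPKM in the windows, against 1.41 and 1.73 RPKM in asynchronous cells, and 11 of those 13 genes also stayed below 0.5 RPKM.

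**Figure D1:**
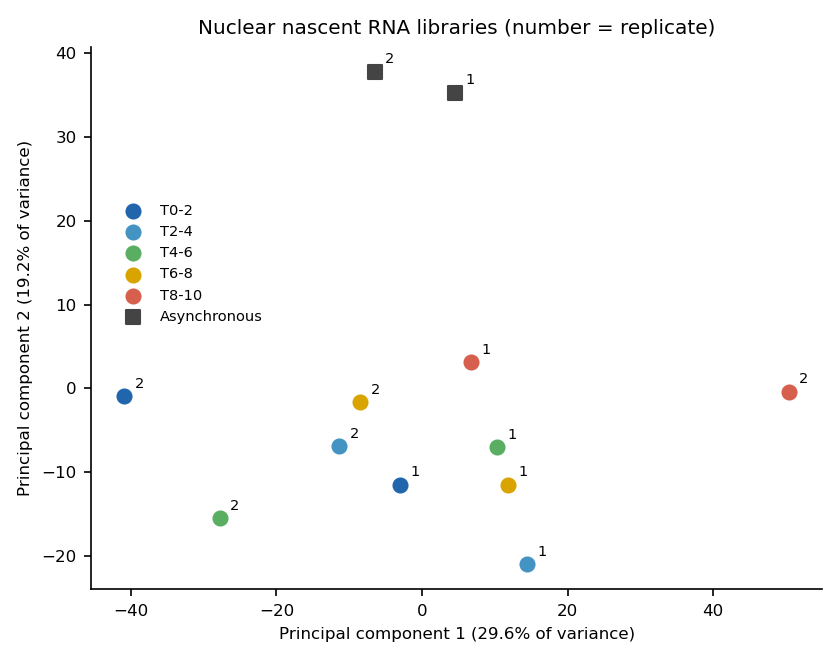
Principal components 1 and 2 of log2(RPKM + 0.25) over the 9784 tested genes, 1 point per library, circles for the 5 windows and squares for asynchronous cells, numbers for replicates. The 2 asynchronous libraries lie at 35.3 and 37.8 on the vertical axis, above all 10 window libraries, and T8-10 replicate 2 lies alone at 50.4 on the horizontal axis.

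The mean of the 5 windows was compared with asynchronous cells to find genes transcribed more or less after release. Genes of the p53 and hypoxia responses were higher in the windows, and genes of mitosis, ribosome production and origin licensing were lower. Of 9784 genes tested, 440 were called (4.50%), 191 higher (1.95%) and 249 lower (2.54%), with limma's moderated test on log2(RPKM + 0.25) and a Benjamini-Hochberg adjusted p under 0.05. All differences below are on this log2 scale, which understates changes of weak genes. RPKM, reads scaled to gene length and library size, is here per whole gene span including introns. The median difference of called genes was 1.04 among the higher and 0.982 in size among the lower ones, and the median over all tested genes was -0.0124. In 180 of the 191 higher genes and 242 of the 249 lower genes the 10 window libraries did not overlap the 2 asynchronous ones. This held for 5.37% (higher) and 9.52% (lower) of all tested genes. The calls were made on these same values, so the lack of overlap is no separate support for them. With quantile normalization 229 genes were called, 123 higher and 106 lower, so that the share of higher calls was 53.7%. The calls rest on both asynchronous libraries: 26 genes were called without asynchronous replicate 1 and 4 without asynchronous replicate 2, where the lone library was assumed to vary like the other groups. Of 94 called genes named by rule, 79 lost their call without replicate 1 and 92 without replicate 2, while LINC01705 and PURPL passed the test whichever of them was left out, and none changed sign. With array quality weights 1124 genes were called, 446 higher and 678 lower. The weights came out equal for both libraries of each group, at 0.545 for T8-10 and 1.53 for asynchronous cells. They therefore weigh groups and cannot set an outlying replicate below its partner. The count was 265 and 289 without T0-2 replicate 1 or 2, 250 and 278 without T2-4 replicate 1 or 2, 198 and 259 without T6-8 replicate 1 or 2, and 486 without T8-10 replicate 2.

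**Figure D2:**
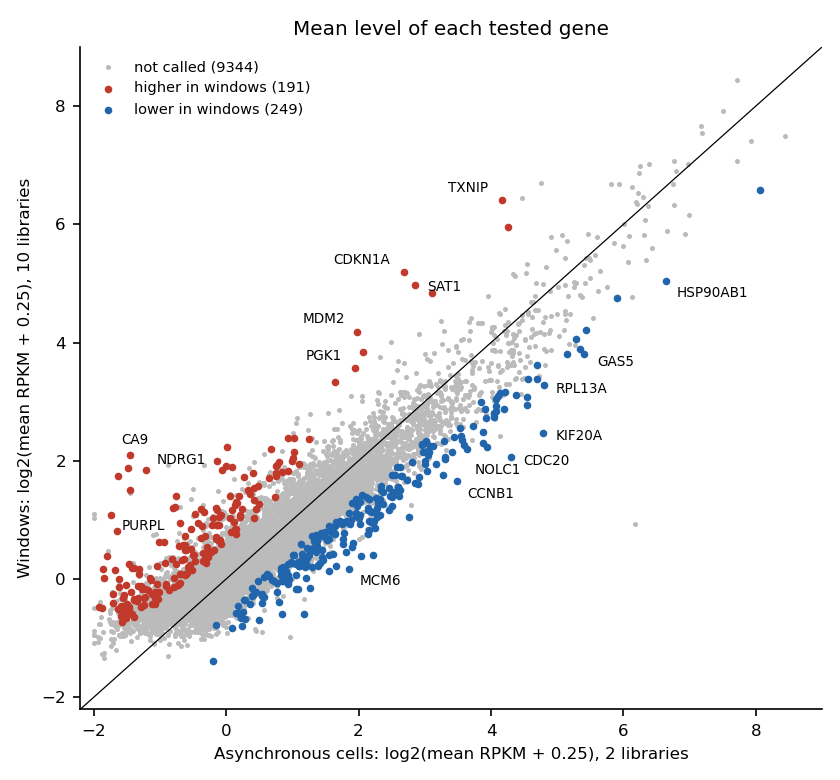
Mean level of each of the 9784 tested genes in the windows (vertical axis, 10 libraries) against asynchronous cells (horizontal axis, 2 libraries), both as log2(mean RPKM + 0.25), with red points for the 191 genes called higher and blue for the 249 called lower. The higher genes lie mostly at low and middle levels in asynchronous cells, with TXNIP and CDKN1A the strongest that are labelled, while many lower genes are strong ones such as HSP90AB1 and GAS5.

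Fewer cells of a phase and less RNA per cell cannot be told apart in these bulk libraries. Long intergenic RNAs made up a larger share of the rises than of the falls: 29 of 413 tested were called higher (7.02%) and 5 lower (1.21%), whereas 148 of 8683 protein-coding genes were called higher (1.70%) and 239 lower (2.75%). Among protein-coding genes the lower calls were most frequent in short genes, with 4.21% of genes up to 13.6 kb, 3.56% of genes up to 33.2 kb, 2.31% of genes up to 76.8 kb and 0.971% of longer genes. For higher calls the shares were 1.20%, 1.39%, 1.90% and 2.17% in the same order. These shares were not tested against each other. The filter kept genes that reached 0.5 RPKM in 2 or more of the 12 libraries. A weak gene seen only in the windows could pass it through any 2 window libraries. A weak gene seen only in asynchronous cells had to reach that level in both asynchronous libraries. The filter therefore let in weak genes that rise more easily than weak genes that fall. Its part in the excess of rises among long intergenic RNAs was not tested. Among the rises named below, PURPL, CA9, NDRG1, ARRDC4 and LINC01705 were under 0.5 RPKM in both asynchronous libraries. These genes passed the filter through window libraries alone.

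The p53 targets gave the fullest set of rises. p53 is a transcription factor that is stabilised by stress and switches on genes that halt the cell cycle, repair DNA, start cell death and restrain p53 itself. Of 34 tested targets, 16 were called higher and none lower, against 1.95% and 2.54% of all genes, and their median difference was 0.98 (1.02 within replicate number 1 and 0.84 within number 2, with no test; 0.93 without T8-10 replicate 2). With a pseudocount of 1 in place of 0.25 the median was 0.65.

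Cell cycle arrest genes of the p53 list had 3 calls among 7 tested members. CDKN1A encodes p21, which inhibits the kinases that drive the cell cycle. Its level was 19.6, 30.6 and 75.9 RPKM (lowest, median and highest of the 10 window libraries), against 5.98 and 6.39 RPKM in asynchronous cells. Every window library was higher than both asynchronous ones, and T8-10 replicate 2 was the highest. The difference was 2.38 ± 0.37 (SE; adjusted p = 0.011), and 2.3 without that library. BTG2, an antiproliferative factor, had 2.15, 3.52 and 6.04 RPKM in the windows against 0.806 and 0.508 RPKM in asynchronous cells, a difference of 2.09 ± 0.22 (adjusted p = 0.0021). SESN2, a stress-induced inhibitor of mTORC1, had 1.19, 2.45 and 3.47 RPKM against 0.74 and 0.842 RPKM (1.31 ± 0.18, adjusted p = 0.007). PLK2, a kinase of the same list, had a mean difference of -1.18 ± 0.31 (adjusted p = 0.06) and was the 1 p53 target called lower at T0-2 (-1.84 ± 0.39, adjusted p = 0.041); it is named after its values were seen.

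Both called feedback genes restrain p53. MDM2, the ubiquitin ligase that marks p53 for destruction, had 13.6, 17.0 and 26.2 RPKM in the windows, against 3.12 and 4.23 RPKM in asynchronous cells. The groups did not overlap, and MDM2 passed the test in each of the 5 windows (mean difference 2.20 ± 0.22, adjusted p = 0.002). PPM1D, a phosphatase that acts on p53, rose by 0.98 ± 0.18 (adjusted p = 0.022). The 4 called genes of repair and metabolism were RRM2B, the form of the small ribonucleotide reductase subunit that p53 induces (1.43 ± 0.18, adjusted p = 0.0064), POLH, a polymerase that bypasses DNA lesions (1.09 ± 0.16, adjusted p = 0.0082), DDB2, which recognises ultraviolet damage (1.49 ± 0.24, adjusted p = 0.013), and FDXR, a mitochondrial reductase (1.72 ± 0.37, adjusted p = 0.036). In RRM2B all window libraries held 2.23 to 3.84 RPKM and both asynchronous ones 0.929 and 0.979 RPKM. Of 12 tested cell death genes 7 were called higher, among them the death receptor FAS (1.09 ± 0.24, adjusted p = 0.037) and PMAIP1, a BH3-only protein (1.18 ± 0.24, adjusted p = 0.027). GDF15, a secreted stress factor, had a difference of 2.02 ± 0.50 that missed the threshold (adjusted p = 0.052).

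PURPL is a long non-coding RNA that p53 induces and that lies on chromosome 5 (27472292 to 27496401, RefSeq, GRCh38.p14). It had 1.04, 1.92 and 2.91 RPKM in the windows, against 0.0452 and 0.0557 RPKM in asynchronous cells. All 10 window libraries were far above both asynchronous ones (mean difference 2.77 ± 0.16, adjusted p = 9.9e-05). PURPL passed the filter through window libraries alone, so this lack of overlap is no separate support. Every window passed the test against the same 2 asynchronous libraries. It was the 1 called of 3 tested p53-induced lncRNAs, with NEAT1 (0.72 ± 0.59) and LINC-PINT (0.39 ± 0.28) not called. The p53 list had its highest median at T4-6 (1.11) and its lowest at T0-2 (0.68), and 67.6% of its tested members had their lowest window mean at T0-2, against 36.4% of all tested genes. BTG2 had window differences of 1.45, 1.79, 2.43, 2.20 and 2.59 in time order, but no p53 target passed the F-test among windows.

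Genes that HIF switches on were also higher. HIF is kept low in cells with oxygen and iron by prolyl hydroxylation, and its targets handle acid, glucose and oxygen-dependent chemistry. Of 21 tested HIF targets, 6 were called higher and none lower, with a median difference of 0.72 (0.56 within replicate number 1 and 0.89 within number 2; 0.63 without T8-10 replicate 2). A binding core of HIF is ACGTG, searched on both strands (CACGT on the other) from 250 bases before to 50 bases after the start in RefSeq promoters of GRCh38.p14. Among genes with 1 listed start it was found in 10 of 13 HIF targets (76.9%), against 28.2% of 5193 tested genes and 21.3% of 22114 promoters in the table. It was found in 4 of 11 glycolysis genes (36.4%), near the share of all tested genes. Shown here are stretches around the match in 2 HIF targets and in the 2 called glycolysis genes that hold it, 5′ to 3′, with the match in capitals.
CA9 (chr9:35673895-35673929, plus strand): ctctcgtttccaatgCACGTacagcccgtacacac
ERO1A (chr14:52695653-52695687, minus strand): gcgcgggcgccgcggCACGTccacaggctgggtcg
PGK1 (chrX:78104031-78104084, plus strand): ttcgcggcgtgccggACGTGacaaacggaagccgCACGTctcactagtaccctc
ENO2 (chr12:6914447-6914481, plus strand): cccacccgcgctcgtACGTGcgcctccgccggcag
A match is a description of these letters, not evidence of binding.

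CA9 encodes carbonic anhydrase IX, a membrane enzyme that removes acid. It had 2.07, 3.87 and 8.29 RPKM in the windows, against 0.156 and 0.0716 RPKM in asynchronous cells. This was the largest rise of the genes named here (3.46 ± 0.40, adjusted p = 0.0041), and its highest library was T8-10 replicate 2, without which the difference was 3.30. NDRG1, a stress-response gene known for its induction by hypoxia and by iron chelation, had 6.04 and 6.93 RPKM at T0-2, 4.25 and 4.1 at T2-4, 3.73 and 2.20 at T4-6, 1.68 and 1.34 at T6-8, and 0.912 and 2.12 at T8-10, against 0.207 and 0.158 RPKM in asynchronous cells. Its level was highest in both T0-2 libraries and stayed above both asynchronous ones in every window library. The mean difference was 2.83 ± 0.26 (adjusted p = 0.0013), but the F-test among windows did not pass (adjusted p = 0.22). Both CA9 and NDRG1 passed the filter through window libraries alone, so their lack of overlap is no separate support.

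ERO1A, an oxidase of the endoplasmic reticulum, had 2.21, 3.60 and 9.33 RPKM in the windows against 1.35 and 1.36 RPKM in asynchronous cells (1.43 ± 0.22, adjusted p = 0.011). BNIP3L, a receptor for removing mitochondria, rose by 1.02 ± 0.15 (adjusted p = 0.0087). The collagen prolyl hydroxylase genes P4HA2 (1.18 ± 0.20, adjusted p = 0.018) and P4HA1 (0.95 ± 0.22, adjusted p = 0.047) completed the 6 calls. The 15 other tested targets ranged from -0.42 to 1.04. The median of the HIF list was 1.28, 0.69, 0.60, 0.47 and 0.73 in the 5 windows in time order (0.47 at T8-10 without replicate 2), and 71.4% of its members had their highest window mean at T0-2, against 22.2% of all tested genes.

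Glycolysis genes, which turn glucose into pyruvate and lactate, moved in both directions. Of 21 tested, 3 were called higher and 2 lower, with a median of 0.36 (0.26 without T8-10 replicate 2). PGK1, phosphoglycerate kinase, had 8.19, 10.2 and 19.3 RPKM in the windows against 3.9 and 3.33 RPKM in asynchronous cells (1.58 ± 0.26, adjusted p = 0.015). ENO2, an enolase, had 6.38, 12.8 and 26.7 RPKM against 4.18 and 3.68 RPKM (1.61 ± 0.37, adjusted p = 0.045). PFKFB4, which makes an activator of phosphofructokinase, rose by 1.28 ± 0.22 (adjusted p = 0.017). In contrast LDHB, a lactate dehydrogenase, had 0.599, 1.06 and 1.84 RPKM in the windows against 2.94 and 2.68 RPKM (-1.22 ± 0.24, adjusted p = 0.024), and PFKM, a phosphofructokinase, changed by -0.93 ± 0.14 (adjusted p = 0.01). HK2, a hexokinase that the naming rule did not pick, had 3.71 and 4.28 RPKM at T0-2 but 0.798 to 1.64 RPKM in the 8 later libraries, against 1.14 and 1.26 RPKM in asynchronous cells. It was called higher at T0-2 (1.55 ± 0.22, adjusted p = 0.0093) and was at -0.15 ± 0.22 at T8-10, while its F-test among windows gave an adjusted p of 0.092.

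Iron and polyamine genes each had 1 rise, and 1.95% of all tested genes were called higher. HMOX1, heme oxygenase 1, was the 1 called gene of 11 tested iron genes (4.99 ± 1.74 RPKM in windows, SD, n = 10; 1.38 and 1.96 RPKM in asynchronous cells; difference 1.39 ± 0.31, adjusted p = 0.041). TFRC, the transferrin receptor (0.31 ± 0.32), and the ferritin genes FTH1 (0.55 ± 0.36) and FTL (-0.22 ± 0.50) did not pass. None of 18 tested iron-dependent demethylase and hydroxylase genes was called for the mean of windows. SAT1, which starts polyamine breakdown, was the 1 called gene of 9 polyamine genes. It had 18.3, 26.0 and 69.7 RPKM in the windows against 9.70 and 4.18 RPKM in asynchronous cells (2.13 ± 0.35, adjusted p = 0.014).

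TXNIP and its relative ARRDC4 are arrestin-domain genes that restrain glucose uptake. TXNIP had 36.3, 87.5 and 115 RPKM in the windows against 23.3 and 12.3 RPKM in asynchronous cells. All window libraries were higher, with both T0-2 libraries, at 36.3 and 58.7 RPKM, the lowest of the 10. The difference was 2.23 ± 0.33 (adjusted p = 0.0094). ARRDC4 had 1.01, 1.59 and 2.49 RPKM against 0.353 and 0.375 RPKM (1.61 ± 0.15, adjusted p = 0.0013). The other 3 members, ARRDC1, ARRDC2 and ARRDC3, had differences of 0.72, 0.78 and 0.27 and were not called. The ARRDC4 promoter is shown because it holds the E-box CACGTG, a palindrome bound by glucose-sensing and MYC-type factors, here in capitals. CACGTG was not found in the same window of either listed TXNIP start.
ARRDC4 (chr15:97960478-97960513, plus strand): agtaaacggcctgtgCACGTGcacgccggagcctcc

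Other strong rises were unlike each other. LINC01705, a long intergenic RNA on chromosome 1 (222041704 to 222059393, RefSeq, GRCh38.p14), had 7.23 and 8.11 RPKM at T0-2, 1.70 and 2.46 at T2-4, 2.63 and 3.23 at T4-6, 1.66 and 1.98 at T6-8, and 1.03 and 0.904 at T8-10, against 0.0801 and 0.068 RPKM in asynchronous cells. Its level was highest in both T0-2 libraries and lowest of the windows in both T8-10 libraries, yet every window library was above both asynchronous ones. The mean difference was 3.06 ± 0.16 (adjusted p = 7.1e-05). LINC01705 also passed the filter through window libraries alone. GDNF, a neurotrophic factor, had 1.68, 3.32 and 5.26 RPKM against 0.966 and 0.448 RPKM (1.90 ± 0.22, adjusted p = 0.0041). E2F7, a repressor of E2F targets, had 5.89, 9.75 and 14.3 RPKM against 3.31 and 2.48 RPKM (1.65 ± 0.22, adjusted p = 0.0075). The uncharacterised loci AL021807.1, AC117402.1, AL590004.3, AL158206.1 and AC097451.1 and the olfactory receptor pseudogene OR2W6P rose by 1.90 to 3.23. Among the RNAs that fell, LINC00641 had 2.02, 2.74 and 5.99 RPKM against 7.56 and 8.37 RPKM (-1.29 ± 0.30, adjusted p = 0.046), and AL513165.1, AC027288.1, AC015813.2 and AC018638.6 changed by -1.51 to -1.03.

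The 3 long non-coding RNAs that were knocked down in other samples of the series were not called for the mean of windows. MANCR, the RNA the series calls LINC00704, had 3.25, 5.37 and 10.1 RPKM in the windows against 3.05 and 3.77 RPKM in asynchronous cells (0.66 ± 0.26, adjusted p = 0.18). MIAT had 0.342, 0.912 and 1.70 RPKM against 0.364 and 0.255 RPKM (1.01 ± 0.28, adjusted p = 0.077). LUCAT1 had 4.31 and 1.78 RPKM at T0-2 and 0.418 to 1.16 RPKM in the 8 later libraries, against 0.333 and 0.492 RPKM (0.81 ± 0.30, adjusted p = 0.16). LUCAT1 was called at T0-2 (2.21 ± 0.38, adjusted p = 0.021). In all 3 the window and asynchronous values overlapped. Of 13 tested nuclear lncRNAs, MEG3 was the 1 called (1.13 ± 0.22, adjusted p = 0.023), and MALAT1 differed by 0.19 ± 0.36. Among all tested genes 4.50% were called.

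**Figure D3:**
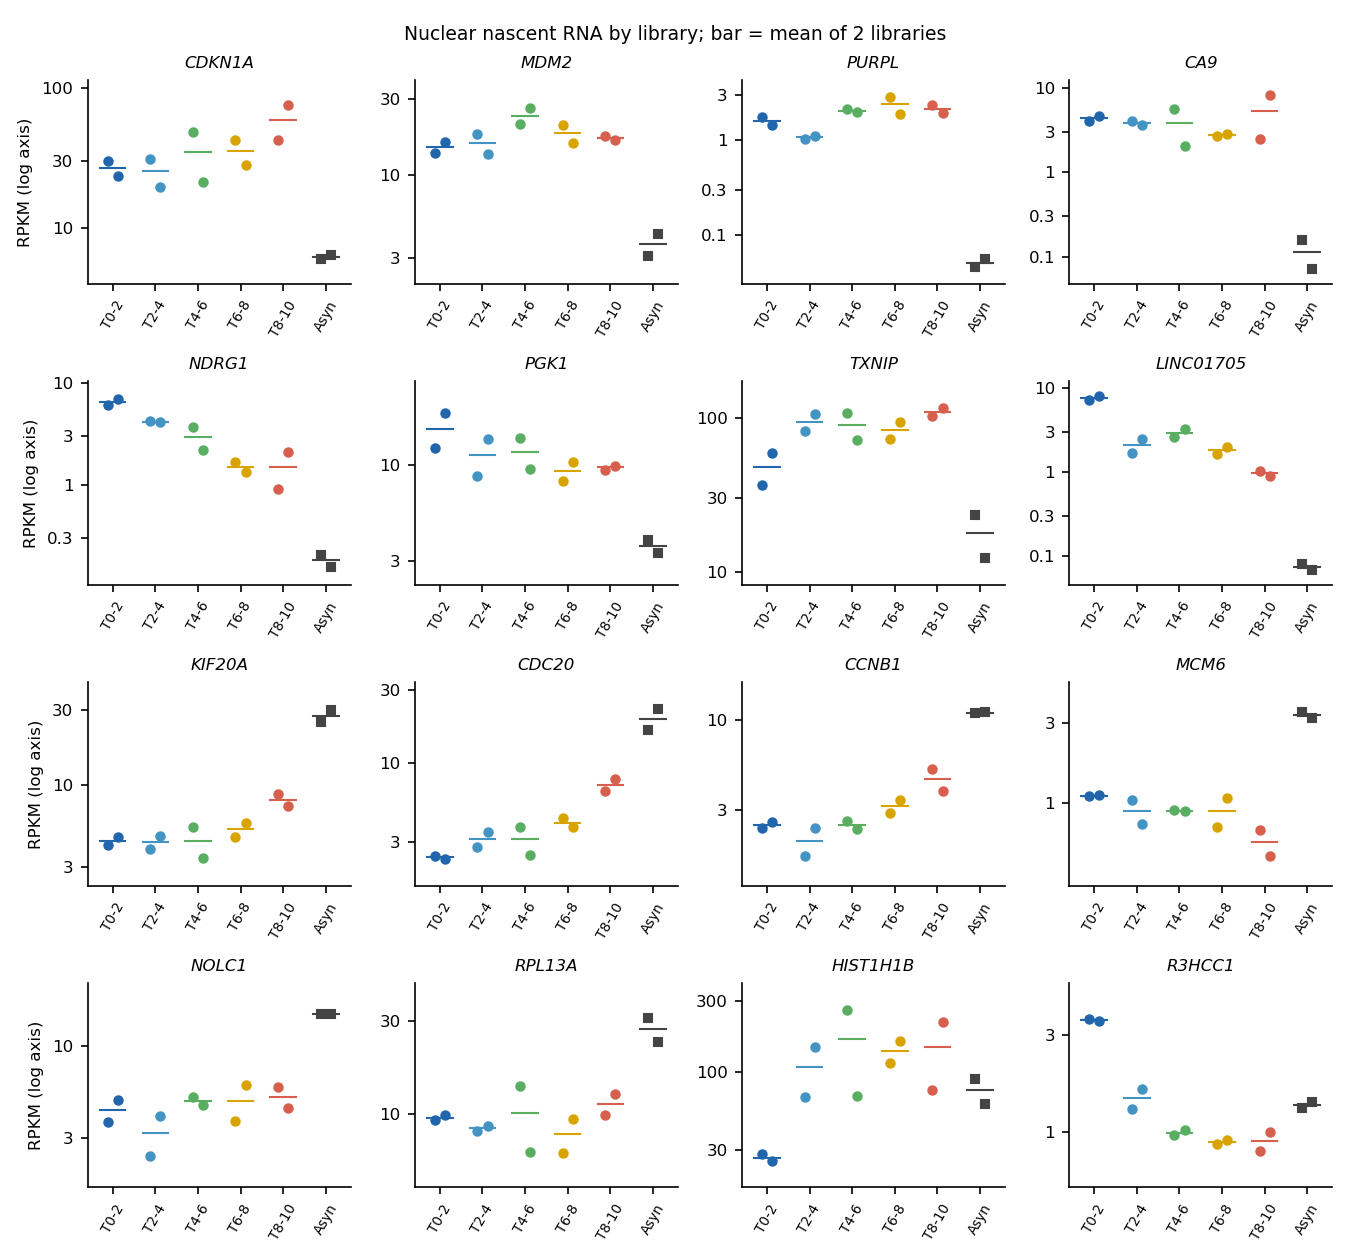
Level of 16 genes in each of the 12 libraries, in RPKM on log axes that differ between panels, with 2 points and their mean for each window and for asynchronous cells at the right. CDKN1A, MDM2, PURPL, CA9, NDRG1, PGK1, TXNIP and LINC01705 lie above the asynchronous points in every window library, KIF20A, CDC20, CCNB1, MCM6, NOLC1 and RPL13A lie below them, and HIST1H1B and R3HCC1 cross them.

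Genes of G2 and mitosis were lower. They encode the cyclins, kinases, motors and kinetochore proteins that separate chromosomes, and the DREAM and B-MYB complexes control many of them through a CHR element, TTTGAA, and CCAAT boxes. Of 78 tested genes, 13 were called lower and none higher, with a median of -0.28 (-0.30 without T8-10 replicate 2). In 20 of them every window library lay below both asynchronous ones, which held for 9.52% of all tested genes. TTTGAA was found on either strand in 39 of 55 tested members with 1 listed start (70.9%), against 9.24% of the tested genes and 16.0% of all promoters. Among the members called lower it was found in 6 of 11 (54.5%). CCAAT was found in 41 of 55 members (74.5%) and 10 of 11 called lower (90.9%), against 38.4% and 36.2%. The promoters of the 3 genes with the largest falls and of PLK1 are shown around their matches, with TTTGAA or CCAAT in capitals, and also their reverse complements, which read TTCAAA for the CHR and ATTGG for the CCAAT box.
KIF20A (chr5:138179003-138179064, plus strand): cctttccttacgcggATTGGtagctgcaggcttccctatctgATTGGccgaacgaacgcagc
CDC20 (chr1:43358788-43358945, plus strand): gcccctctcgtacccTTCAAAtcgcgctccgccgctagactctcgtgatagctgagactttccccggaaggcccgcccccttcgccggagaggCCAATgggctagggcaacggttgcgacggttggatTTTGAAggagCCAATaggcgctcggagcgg
CCNB1 (chr5:69167048-69167114, plus strand): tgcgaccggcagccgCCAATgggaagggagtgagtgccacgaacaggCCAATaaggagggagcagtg
PLK1 (chr16:23678801-23678880, plus strand): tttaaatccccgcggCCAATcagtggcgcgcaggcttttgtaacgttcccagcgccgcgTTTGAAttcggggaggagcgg
In KIF20A and CCNB1 the matches were CCAAT boxes alone, and no TTTGAA lay in the window searched.

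KIF20A, a kinesin of the central spindle, had 3.42, 4.69 and 8.76 RPKM in the windows, against 25 and 29.9 RPKM in asynchronous cells. No window library came near either asynchronous one, and the difference was -2.37 ± 0.21 (adjusted p = 0.0013). CDC20, the activator of the anaphase-promoting complex, had 2.43 and 2.3 RPKM at T0-2, 2.77 and 3.50 at T2-4, 3.78 and 2.47 at T4-6, 4.28 and 3.75 at T6-8, and 6.46 and 7.76 at T8-10, against 16.3 and 22.6 RPKM. Both T8-10 libraries were above the 8 earlier ones and below both asynchronous ones (mean difference -2.32 ± 0.21, adjusted p = 0.0013). CCNB1, cyclin B1, had 1.62, 2.56 and 5.18 RPKM against 11 and 11.1 RPKM (-1.89 ± 0.18, adjusted p = 0.0015).

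AURKA, a centrosome kinase, had 1.17, 1.58 and 2.41 RPKM in the windows against 4.22 and 4.36 RPKM in asynchronous cells (-1.24 ± 0.18, adjusted p = 0.0081). PLK1, the main kinase of mitotic entry, had 0.864 and 0.410 RPKM at T0-2 and 3.30 and 3.11 RPKM at T8-10, against 3.49 and 4.92 RPKM (-1.50 ± 0.22 for the mean of windows, adjusted p = 0.0094). By role, 6 of 19 kinases and cyclins, 4 of 27 motor and spindle genes, 3 of 18 kinetochore and separation genes and none of 14 others were called lower. The 65 tested members not called ranged from -1.03 to 0.53. In time order the windows had 14, 13, 7, 4 and 1 members called lower, the last being KIF20A, against 166, 130, 49, 19 and 7 of all tested genes (1.70%, 1.33%, 0.501%, 0.194% and 0.0715%), so the calls declined in the whole set as well. The list had medians of -0.49, -0.41, -0.39, -0.19 and -0.082, and without T8-10 replicate 2 the T8-10 median was 0.10 with no member called. In 64.1% of its members the highest window mean was at T8-10, against 36.2% of all tested genes, and no member passed the F-test among windows.

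Origin licensing genes were lower in part. MCM2 to MCM7 form the ring that opens DNA at origins, and E2F factors drive many of these genes before S phase. Of 24 tested licensing genes 3 were called lower and none higher, with a median of -0.25 (-0.20 without T8-10 replicate 2). MCM6 had 0.48, 0.904 and 1.12 RPKM in the windows against 3.53 and 3.22 RPKM in asynchronous cells (-1.71 ± 0.16, adjusted p = 0.0016). It passed the test in each window, with the same 2 asynchronous libraries each time and the outlying replicate 2 at T8-10. MCM3 had 2.82, 3.68 and 4.81 RPKM against 10.7 and 8.56 RPKM (-1.29 ± 0.20, adjusted p = 0.013). MCM5 differed by -1.09 ± 0.23 (adjusted p = 0.033). MCM7 (-1.12 ± 0.29, adjusted p = 0.06), MCM2 (-0.78 ± 0.25) and MCM4 (-0.52 ± 0.19) did not pass, although each lay below both asynchronous libraries in every window library. The ORC genes ranged from -0.37 to 0.08 and were not called. The E2F motifs TTCCCGC and TTGGCGC were found on either strand in 9 of 16 licensing genes (56.2%) and 15 of 20 fork genes (75%) with 1 listed start, against 15.8% of tested genes and 9.02% of all promoters. They are shown in capitals for the 2 MCM genes with the largest falls, GCGGGAA being the reverse complement of TTCCCGC.
MCM6 (chr2:135876511-135876609, minus strand): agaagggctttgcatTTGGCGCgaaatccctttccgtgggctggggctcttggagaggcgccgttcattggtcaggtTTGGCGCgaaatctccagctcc
MCM3 (chr6:52284744-52284930, minus strand): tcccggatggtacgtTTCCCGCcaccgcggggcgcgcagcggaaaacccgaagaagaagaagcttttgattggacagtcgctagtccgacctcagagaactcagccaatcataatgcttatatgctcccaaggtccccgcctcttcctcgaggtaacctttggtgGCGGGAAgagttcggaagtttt

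Genes of the fork itself had a median near that of all genes. Among all tested genes 1.95% were called higher and 2.54% lower. Of 31 tested replication fork and repair genes, UNG, which removes uracil from DNA, was the 1 called (-1.19 ± 0.20, adjusted p = 0.017), and the median was 0.048. Of 17 tested G1/S regulators 1 was called in each direction, E2F7 higher as given above and E2F1 lower. E2F1, a transcription factor that drives entry into S phase, had 0.836, 1.45 and 2.20 RPKM in the windows against 2.94 and 2.76 RPKM (-0.89 ± 0.22, adjusted p = 0.0497). Nucleotide supply genes had 5 of 22 called lower, all of purine, folate or pyrimidine synthesis (IMPDH2, PAICS, MTHFD1, GART and CAD), and a median of -0.43. IMPDH2, the limiting enzyme of guanine nucleotide synthesis, had 10.3, 11.1 and 15.7 RPKM against 28.2 and 23.3 RPKM (-1.09 ± 0.19, adjusted p = 0.019). None of 12 chromatin assembly genes passed, with NASP, a histone chaperone, at -0.58 ± 0.16 (adjusted p = 0.068) and ASF1B at 0.57 ± 0.19 (adjusted p = 0.13).

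Replication-dependent histone genes, which package new DNA, had no call for the mean of windows among 48 tested, and a median of 0.25 (0.14 without T8-10 replicate 2), while their levels were lowest at T0-2. Their summed level was 763 and 711 RPKM at T0-2, 1563 and 2857 at T2-4, 4842 and 1703 at T4-6, 2127 and 3244 at T6-8, and 2187 and 3466 at T8-10, against 1844 and 1525 RPKM in asynchronous cells. Both T0-2 libraries were below all others, and 6 of the 8 later libraries were above both asynchronous ones. The 2 libraries of T4-6 differed widely from each other. Their median difference was -1.16, 0.28, 0.82, 0.70 and 0.59 in the 5 windows in time order (0.38 at T8-10 without replicate 2). In 89.6% of the 48 genes (43 genes) the lowest window mean was at T0-2, against 36.4% of all tested genes.

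HIST1H1B, a linker histone, had 28.0 and 25.4 RPKM at T0-2, 67.5 and 147 at T2-4, 262 and 68.8 at T4-6, 115 and 161 at T6-8, and 75.8 and 218 at T8-10, against 90.3 and 60.6 RPKM in asynchronous cells. It was chosen as an example after its values were seen. HIST1H2BL was the 1 histone gene called at T0-2, where it had 7.57 and 3.22 RPKM against 28.3 and 21.0 RPKM (-2.24 ± 0.50, adjusted p = 0.046). All 5 classes had negative medians at T0-2, from -1 for H4 to -1.48 for H2A. No histone gene passed the F-test among windows. Histone genes have near-identical copies, so single values are uncertain. In the nuclear RNA that the labels call input, 27 of 45 tested histone genes were called higher for the mean of windows with the replicate number as a block (16.4% of all genes there were) and 7 without it (1.96% of all genes), with a median of 0.62.

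**Figure D4:**
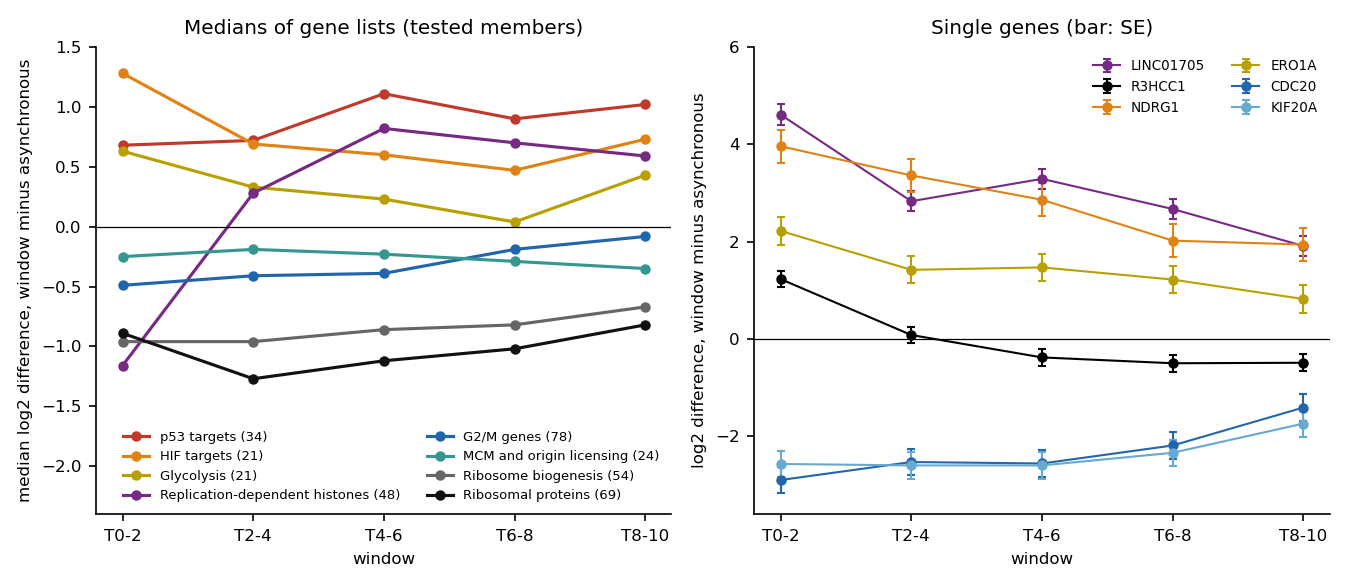
Left, median log2 difference of each window from asynchronous cells over the tested members of 8 lists (numbers in brackets), where histone genes lie at -1.16 at T0-2 and 0.82 at T4-6 and HIF targets are highest at T0-2 (1.28). Right, log2 difference of 6 single genes with SE bars, where LINC01705, NDRG1, ERO1A and R3HCC1 are highest at T0-2 and CDC20 and KIF20A least negative at T8-10; all points share the same 2 asynchronous libraries.

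Ribosomal protein genes were lower as a group. Transcripts of many ribosomal proteins and translation factors, and of some snoRNA hosts, begin with a run of pyrimidines (C or T), the TOP motif. Of 69 tested ribosomal protein genes 23 were called lower and none higher, and the median was -1.02 (-1 without T8-10 replicate 2). In 52 of them every window library lay below both asynchronous ones, which held for 9.52% of all tested genes. All 69 differences were negative, and their range was -1.61 to -0.07. In single windows 1, 6, 1, 1 and 0 members were called lower in time order. The shares of all tested genes called lower were 1.70%, 1.33%, 0.501%, 0.194% and 0.0715%. By subunit, 17 of 43 large and 6 of 26 small subunit genes were called. A run of at least 7 C or T that holds the start was found in 37 of 46 with 1 listed start (80.4%), in 10 of 13 translation factors (76.9%) and in 3 of 13 snoRNA hosts (23.1%), against 6.89% of tested genes and 6.00% of all promoters. Stretches of 50 bases around the start are shown for 3 genes with that run, in capitals, and for RPL4, which had the largest fall of the 4 ribosomal protein genes named and no run by this rule.
RPL13A (chr19:49487578-49487627, plus strand): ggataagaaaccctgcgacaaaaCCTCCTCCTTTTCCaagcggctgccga
RPS13 (chr11:17077648-17077697, minus strand): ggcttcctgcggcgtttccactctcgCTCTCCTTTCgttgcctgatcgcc
EEF1A1 (chr6:73521013-73521062, minus strand): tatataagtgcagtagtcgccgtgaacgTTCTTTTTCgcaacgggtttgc
RPL4 (chr15:66504836-66504885, minus strand): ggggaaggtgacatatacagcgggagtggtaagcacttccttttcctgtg

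RPL4 had 2.06, 3.43 and 4.20 RPKM in the windows against 10.8 and 8.01 RPKM in asynchronous cells (-1.54 ± 0.25, adjusted p = 0.014). RPL13A had 6.34, 9.37 and 13.9 RPKM against 31.3 and 23.6 RPKM (-1.53 ± 0.29, adjusted p = 0.023). RPS13 (-1.33 ± 0.23, adjusted p = 0.018) and RPS7 (-1.26 ± 0.24, adjusted p = 0.022) were the small subunit genes with the lowest p. Of 20 translation factors 3 were called lower, EEF1A1, the elongation factor that brings tRNA to the ribosome (-1.46 ± 0.28, adjusted p = 0.024), RACK1, a scaffold on the small subunit (-1.26 ± 0.27, adjusted p = 0.034), and NACA, a nascent chain chaperone (-1.09 ± 0.25, adjusted p = 0.041). Of 18 tested snoRNA hosts, GAS5 (8.60, 13.2 and 22.5 RPKM against 51.1 and 33.6 RPKM, -1.61 ± 0.32, adjusted p = 0.027) and ZFAS1 (-1.34 ± 0.27, adjusted p = 0.027) were called lower. The summed ribosomal protein level was 302 to 578 RPKM in the windows, against 1061 and 874 RPKM in asynchronous cells. Ribosomal protein genes have many processed pseudogenes, and the sources used here do not say how reads shared with those copies were counted.

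Ribosome biogenesis genes, which make rRNA and assemble subunits in the nucleolus, fell as well: 23 of 54 were called lower and none higher, with a median of -0.88 (-0.87 and -0.88 within replicate numbers 1 and 2). In single windows 21, 17, 9, 2 and 1 members were called lower in time order. Among all tested genes the shares were 1.70%, 1.33%, 0.501%, 0.194% and 0.0715%, so calls declined in the whole set as well. Of 40 nucleolar genes 19 were called, and 4 of 14 RNA polymerase I genes and factors (POLR1A, POLR1B, POLR1C and POLR1E, -1.15 to -0.83). NOLC1, a nucleolar chaperone of snoRNPs, had 2.36, 4.52 and 6.02 RPKM in the windows against 15.1 RPKM in both asynchronous libraries (-1.74 ± 0.25, adjusted p = 0.0081). UTP20, of the small subunit processome, had 0.449, 0.617 and 0.91 RPKM against 2.28 and 2.03 RPKM (-1.43 ± 0.15, adjusted p = 0.002). It passed in every window, with the same 2 asynchronous libraries each time and the outlying replicate 2 at T8-10. NOP2, an rRNA methyltransferase (-1.20 ± 0.14), and MRTO4, an assembly factor of the large subunit (-1.31 ± 0.16), both had an adjusted p of 0.0041. DDX21, a helicase of rRNA transcription, changed by -1.63 ± 0.29, and NPM3, a nucleoplasmin family member, by -1.93 ± 0.38. CACGTG was found in 13 of 34 of these genes with 1 listed start (38.2%), against 10.5% of tested genes and 7.28% of all promoters.

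Chaperone, energy and proteasome genes leaned the same way. For comparison, 2.54% of all tested genes were called lower and 1.95% higher. Of 12 heat shock genes 4 were called lower and HSPA4L higher (0.82 ± 0.18, adjusted p = 0.041), with a median of -0.72 (-0.45 with quantile normalization). HSP90AB1, a cytosolic HSP90, had 18.7, 33.8 and 57.6 RPKM in the windows against 102 and 96.9 RPKM in asynchronous cells (-1.66 ± 0.33, adjusted p = 0.027). HSPA8, the constitutive HSP70, had 59.2, 88.5 and 148 RPKM against 337 and 199 RPKM (-1.50 ± 0.35, adjusted p = 0.046). The other 2 that fell were HSPA4 (-1.07 ± 0.16) and HSPD1 (-1.26 ± 0.23). Oxidative phosphorylation had 5 of 59 called lower (NDUFB10 and ATP5MC3 among them; median -0.33) and the proteasome 4 of 27 (PSMC5, PSMA5, PSMB6 and PSMA4; median -0.54). APEX1, a DNA repair endonuclease, had 3.88, 6.53 and 13.0 RPKM against 25.3 and 21.1 RPKM (-1.68 ± 0.33, adjusted p = 0.024), and KPNA2, an importin, changed by -1.55 ± 0.24. Zinc finger genes, a large family of moderate levels, had a median of 0.047 with 2 of 259 called higher and 1 lower.

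Signalling lists had few calls, and 1.95% of all tested genes were called higher and 2.54% lower. A single call in lists this short is therefore not a result about the list. ATF3 was the 1 of 17 immediate early factors called higher (0.98 ± 0.23, adjusted p = 0.046), DUSP10, a MAP kinase phosphatase, the 1 of 15 ERK feedback genes (1.38 ± 0.19, adjusted p = 0.007), and LTBP1, which stores latent TGF-beta, the 1 of 38 matrix genes (0.64 ± 0.11, adjusted p = 0.021). Of 21 NF-kB and cytokine genes TNFAIP3, a brake on NF-kB (1.13 ± 0.21, adjusted p = 0.022), and PTGS2, cyclooxygenase 2 (1.36 ± 0.27, adjusted p = 0.028), rose. PTGS2 had its highest window mean at T0-2, where the difference was 2.91, against 0.39 at T8-10, and its window and asynchronous values overlapped. SAMD9L was the 1 of 18 interferon-stimulated genes (1.12 ± 0.18, adjusted p = 0.015), YPEL3 the 1 of 13 quiescence genes (1.42 ± 0.29, adjusted p = 0.031), HNRNPF the 1 of 17 nuclear RNA-binding protein genes (-0.84 ± 0.19, adjusted p = 0.042) and PGD the 1 of 11 NRF2 targets (-0.80 ± 0.18, adjusted p = 0.041). Of 27 ATF4 targets VLDLR rose (1.07 ± 0.21) and MARS fell (-0.97 ± 0.14).

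No member was called for the mean of windows among receptor tyrosine kinases (14 tested), YAP/TEAD targets (13) and BMP pathway genes (12). None passed among Wnt and Notch targets (11), endoplasmic reticulum chaperones (19), sterol and lipid genes (27) and clock genes (11). The same held for splicing regulators (23), lysosomal genes (17) and tubulins (6). At that threshold 4.50% of all tested genes were called, so lists this short can lack a call at the share of all genes. Limma's unadjusted p under 0.05 was met by 20.3% of all tested genes. HES1, a Notch target, had the largest difference in these lists (-1.54 ± 0.46, adjusted p = 0.091), with values overlapping asynchronous cells. Of 6 tested markers of the cultured line none was called. VIM, vimentin, had 94, 119 and 232 RPKM in the windows against 221 and 200 RPKM in asynchronous cells, so this mesenchymal marker was strong in all 12 libraries. Levels of the other members varied. ACTB had 13.1 to 27.5 RPKM in the windows against 35.6 and 33.6 RPKM in asynchronous cells. CD44 had 8.1 to 23.3 RPKM against 19.1 and 19.2 RPKM, and CDH2 2.27 to 6.83 RPKM against 6.13 and 5.89 RPKM. The keratins KRT8 and KRT7 were weaker. KRT8, a keratin, had 0.917 to 2.14 RPKM in the windows against 2.41 and 2.02 RPKM, and KRT7 stayed below 0.5 RPKM in all 12 libraries. KRT18, also a keratin, had 4.95 to 13.1 RPKM in the windows against 22.9 and 20.2 RPKM (-1.37 ± 0.33).

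**Figure D5:**
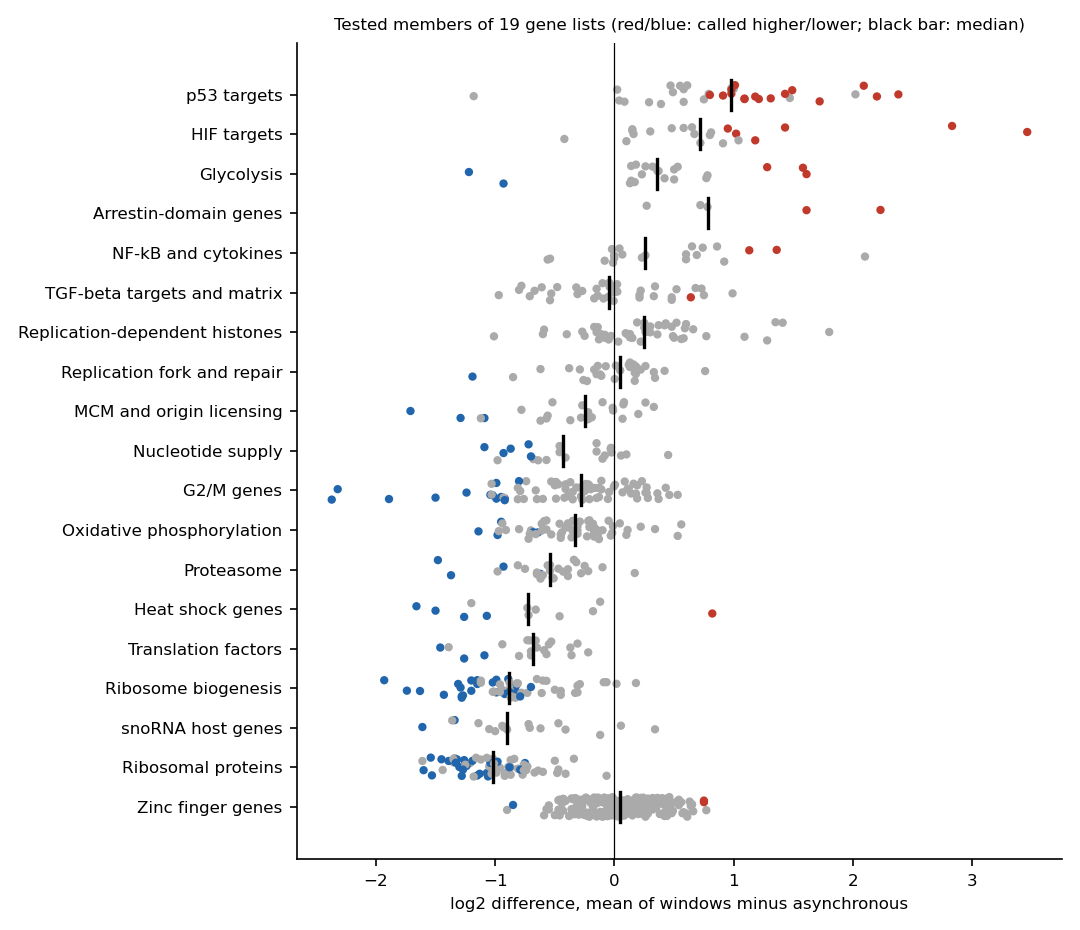
Log2 difference between the mean of windows and asynchronous cells for each tested member of 19 lists, red for genes called higher, blue for genes called lower, grey for the rest, and a black bar at the median. The p53 targets (median 0.98) and HIF targets (0.72) lie mostly right of 0, all ribosomal protein genes (-1.02) lie left of it, and zinc finger genes (0.047) centre on it.

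Each window was also compared with the same 2 asynchronous libraries, so the 5 comparisons are not independent and are given side by side. At T0-2, 330 genes were called (3.37%), 164 higher (1.68%) and 166 lower (1.70%). At T2-4 195 genes were called (1.99%), 65 higher (0.664%) and 130 lower (1.33%). At T4-6 122 were called (1.25%), 73 higher (0.746%) and 49 lower (0.501%). At T6-8 56 were called (0.572%), 37 higher (0.378%) and 19 lower (0.194%). At T8-10 26 were called (0.266%), 19 higher (0.194%) and 7 lower (0.0715%). With array quality weights, equal for both libraries of a group, the counts were 718, 665, 153, 447 and 8 in time order. Each count rests on single libraries. It was 50 and 42 without replicate 1 or 2 of T0-2, 4 and 17 without those of T2-4, 61 and 18 without those of T4-6, 4 and 6 without those of T6-8, and 216 and 2 without those of T8-10. Without asynchronous replicate 1 the counts were 17, 10, 18, 5 and 5 in time order, and without asynchronous replicate 2 they were 14, 0, 4, 4 and 2. Of the genes called for the mean of windows, 189 of 191 higher and all 249 lower ones had the same sign in each of the 5 windows. They were selected on the mean of these same differences, so the shared sign follows largely from the selection. The median difference of the genes called lower for the mean was -1.04, -1.15, -1.03, -0.905 and -0.755 in time order, and that of the genes called higher 1.03, 1, 1.14, 1.02 and 0.892.

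Differences among the 5 windows themselves were tested with limma's F-test, and 2 of 9784 genes passed (0.0204%; 956 genes, 9.77%, at an unadjusted p under 0.05). LINC01705 passed with an adjusted p of 0.033. R3HCC1, a gene on chromosome 8 with a putative RNA-binding domain, passed with an adjusted p of 0.037. It had 3.59 and 3.51 RPKM at T0-2, 1.30 and 1.63 at T2-4, 0.963 and 1.02 at T4-6, 0.871 and 0.911 at T6-8, and 0.805 and 0.999 at T8-10, against 1.32 and 1.41 RPKM in asynchronous cells. Both T0-2 libraries were above all other libraries, and the 6 libraries from T4-6 on were below both asynchronous ones. The gene was called at T0-2 (1.23 ± 0.17) and its mean over windows did not pass the test (-0.012 ± 0.13, adjusted p = 0.97). The F-test calls rest on most single libraries: 0 genes passed when either library of T0-2, T4-6 or T6-8 or T8-10 replicate 2 was left out, and 1 passed without T2-4 replicate 1 or either asynchronous library.

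Nuclear input RNA of the same 6 groups was fitted in its own table, since the tables were scaled separately, and its values stand side by side with the nascent ones. Same-numbered input libraries deviated together, so the value with the replicate number as a block stands beside the value without it. With the block 3314 of 9633 genes were called (34.4%), 1575 higher (16.4%) and 1739 lower (18.1%). Without it 440 were called (4.57%), 189 higher (1.96%) and 251 lower (2.61%). The blocked count was 2486 without asynchronous replicate 1 and 1635 without asynchronous replicate 2, and the count without the block was 0 and 4. Of the 191 genes called higher in nascent RNA, 177 were also called higher in input with the block (92.7% of the nascent and 11.2% of the input calls), against 16.4% of the 9299 genes tested in both. Without the block 94 were shared (49.2% and 49.7% of each list), against 2.03%. Of the 249 called lower, 241 were also called lower in input with the block (96.8% and 13.9%), against 18.4%, and 128 without it (51.4% and 51.0%), against 2.65%. The sign was the same in input for all 181 higher and all 248 lower nascent calls that were tested there. The share of all genes with the same sign is not given here. The labels do not say whether input and nascent RNA came from the same cells, so the input is not taken as a separate repeat. CA9 was at 3.73 ± 0.18 in input with the block (adjusted p = 1.5e-05) and 3.46 ± 0.40 in nascent RNA, and KIF20A at -1.99 ± 0.11 in input with the block (adjusted p = 2.2e-05) and -2.37 ± 0.21 in nascent RNA. HIST1H3D, a histone H3 gene, was at 1.83 ± 0.21 in input with the block (adjusted p = 0.00049) and 1.80 ± 0.66 in nascent RNA (adjusted p = 0.16). Whether nascent RNA and input differed was not tested.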

How the data were processed

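RNA was sequenced from strand-specific libraries of hTERT-RPE1 nuclei, 12 nascent and 12 input. The sources used here do not say whether counting used the strand, so overlapping and antisense genes cannot be told apart. The authors deposited RPKM values per gene, 1 table for each RNA type, per the file headers. STAR 2.5.3, featureCounts 1.6.1, edgeR, Bowtie2 2.3.4.3 and HOMER 4.10.3 with hg38 are named, without roles, per the submitters' processing notes. The gene lengths behind RPKM matched the RefSeq gene span within 10% for 75.4% of 14025 genes (median ratio 1). Low RPKM values were whole multiples of 1 read (100% within 0.05 reads), which gave the library sizes of 12.8 to 29 M reads. Values of weak genes carry more counting error in the shallower libraries.

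The test covered the 9784 of 20695 genes that reached 0.5 RPKM in 2 or more of the 12 libraries. log2(RPKM + 0.25) was fitted with limma 3.58.1 in R 4.3.3, 1 mean per group and no block, with the mean of 5 windows, each window, and an F-test among windows as contrasts, and adjusted p-values over all tested genes. The script was tested on simulated data. The deviations of same-numbered libraries correlated at 0.627 to 0.861 in all 15 pairs of groups of the input table, so its fit is given with and without the replicate number as a block; the labels give no source for this pairing. The 2 tables were fitted separately, and 87 other per-sample columns were not used. Promoters came from RefSeq (GRCh38.p14), and figures from Python 3.11.15 with matplotlib 3.10.9.

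The members and the 47 gene lists were chosen with earlier results of these data known. Genes named are the 15 largest rises and 15 largest falls that were called, did not overlap between groups and reached a mean of 2 RPKM, up to 4 called members of a list in each direction, the top 2 of a list with no call, the 3 knocked-down lncRNAs, genes called among windows, and 5 called lncRNA-like genes in each direction. Further list members were named after their values were seen. Alternatives changed the pseudocount, filter, scaling, weights, replicate block and the libraries used.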

Additional observations from a re-analysis of the deposited data

Results flagged for a closer look

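LINC01705 differed among the 5 windows of nascent RNA, with an adjusted p of 0.033 in limma's F-test and its highest levels in both T0-2 libraries (7.23 and 8.11 RPKM). R3HCC1 also differed among the windows, with an adjusted p of 0.037 and its highest levels in both T0-2 libraries (3.59 and 3.51 RPKM). Over the settings and left-out libraries tried, the adjusted p ran from 0.019 to 0.3 for LINC01705 and from 0.019 to 0.32 for R3HCC1.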

How the results depend on the processing

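No called gene named by rule changed sign under any alternative. The count for the mean of windows was 394 to 464 with a pseudocount of 1 or 0.1, a filter at 1 RPKM or median scaling, and 537 without the window T8-10. Without the filter it was 244, and 174, 53, 24 and 16 for T0-2, T2-4, T6-8 and T8-10, with 20695 genes tested. With quantile normalization it was 229, and 204, 88 and 35 for T0-2, T2-4 and T6-8. With array quality weights, equal for both libraries of a group, it was 1124, and 718, 665, 447 and 8 for T0-2, T2-4, T6-8 and T8-10. The F-test among windows passed 4 genes without the filter, 12 with quantile normalization, 5 with a pseudocount of 1, 7 with median scaling and 0 without the window T8-10 (fewer samples). Where no construction is named, the cause was not tested.

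Leaving out 1 library at a time gave 4 to 593 genes for the mean of windows, 14 to 422 for T0-2, 0 to 245 for T2-4, 4 to 134 for T4-6, 4 to 54 for T6-8, 2 to 216 for T8-10, 0 to 5 for the F-test and 0 to 287 for the mean of windows in nuclear input.

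In nascent RNA the deviations of same-numbered libraries correlated above 0.1 in 10 of 15 pairs of groups, at -0.308 to 0.402 in all. Of the 5 pairs with T8-10, 4 were negative, whereas the 10 pairs without it ran from 0.0814 to 0.402. The numbers were therefore not taken as pairs in the main fit, although the groups other than T8-10 deviated together weakly. With the replicate block the nascent counts were 544 for the mean of windows, 413, 231, 178, 68 and 22 for the windows in time order, and 2 for the F-test. In nuclear input, where the numbers pair the libraries, 3314 genes were called with the block and 1635 to 3154 with the block and 1 library left out, an alternative chosen after seeing the data. Without filter or block 1289 were called. Genes listed at 0 numbered 43 to 490 a library, and the shallowest libraries limit what can be seen for genes under 0.5 RPKM.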

Other observations

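CBX2, a subunit of the Polycomb repressive complex PRC1, had 143 RPKM in asynchronous replicate 2 of the nascent RNA, against 3.17 RPKM in the next highest library and a median of 1.30 RPKM over the 12. It was the 1 tested gene that reached 20 RPKM in a single library at 10 times the next one or more. Its difference between windows and asynchronous cells was -2.93 with an adjusted p of 0.26 in limma. In nuclear input the library with the same label had 1.2 RPKM, within the range of 0.4 to 1.6 RPKM over the input libraries.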
